A study of Caenorhabditis elegans with 12 samples.

Results

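The lin-4 family of Caenorhabditis elegans has 2 genes in these data, lin-4 and mir-237. Its members were taken by name, as every row of the deposited microRNA table that starts with the name of either gene, which gave cel-lin-4-5p, cel-miR-237-5p and cel-miR-237-3p, 3 of the 213 mature microRNAs measured. The species prefix is left out below. Small RNA had been sequenced from whole adult worms in 4 groups of 3 libraries each. These were mir-71(n4115) mutants (strain MT12993) at day 5 and at day 0 of adulthood, and wild-type N2 worms at day 5 and at day 0. The mutants carry a deletion allele of mir-71, a microRNA gene that promotes long life. All 4 groups were raised at 20 °C and moved shortly after the last moult onto plates with 5-fluorodeoxyuridine at 0.1 mg/mL. This drug blocks DNA synthesis and so keeps progeny from developing, and the worms of both strains and both ages share the treatment.

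MicroRNAs are short RNAs that guide Argonaute proteins to messenger RNAs, mainly through the seed near their 5′ end, and lower the output of those messengers. lin-4 was the first microRNA to be found. It times larval development by repressing lin-14 and lin-28, is related to miR-125 of flies and mammals, and in adults its loss shortens life. mir-237 gives a guide strand, miR-237-5p, with the same seed as lin-4-5p, and a passenger strand, miR-237-3p, which is mostly discarded when the guide is loaded.

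In WBcel235 coordinates, the lin-4 precursor is annotated on chromosome II from 5902254 to 5902347, plus strand, within an intron of the protein-coding gene F59G1.4, which is read from the same strand. A non-coding RNA gene, F59G1.10, covers it on the minus strand. The strand used in counting is not given in the sources used here, so it is not known whether reads of lin-4 and of this antisense gene were kept apart. The mir-237 precursor lies on chromosome X from 8154084 to 8154182, plus strand, and overlaps no other annotated gene. Its nearest protein-coding neighbours are F22F1.2, 3363 bases to the left on the minus strand, and hil-3, 4987 bases to the right on the plus strand.

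The values are the authors' normalised reads. In each library they are whole multiples of a single step, taken as the value of 1 read, and the read numbers so obtained ran from 917170 to 4070663 per library. The mir-71 guide strand was nearly absent from every library labelled mutant, miR-71-5p averaging 153 ± 44.3 and 100 ± 44.0 normalised reads in mutants at day 5 and day 0, against 114533 ± 26448 and 150855 ± 25400 in N2 at day 5 and day 0 (SD, n = 3 each). Library medians ran from 77.1 to 290, the highest being replicate 1 of the mutants at day 5 and the next 212. Markers of the main tissues were all present. All 8 germline and embryo microRNAs of the mir-35 family were detected, with summed levels of 108135 to 346010 in mutants at day 5 against 14147 to 154730 at day 0, and of 143403 to 238057 in N2 at day 5 against 23098 to 97947 at day 0. The single markers of muscle, intestine and glia were above 0 in every group. Nothing in the labels names a sequencing batch.

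By the mean over all libraries miR-237-5p was the most abundant member, although in replicates 2 and 3 of the mutants at day 5 lin-4-5p was above it. With a mean of 9382 normalised reads over the 12 libraries it ranked 35th of the 213, just below miR-73-3p and just above miR-40-3p. lin-4-5p, at 4770, ranked 43rd, between miR-50-5p and miR-359. miR-237-3p, at 35.4, ranked 149th, between miR-232-3p and miR-259-3p. Read numbers of different microRNAs also depend on how well each is captured in a library, so these ranks order reads and not molecules.

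miR-237-5p had a lower mean at day 5 than at day 0 in both strains. Mutants had 11091, 3500 and 4668 normalised reads at day 5, against 16949, 10727 and 13830 at day 0. N2 had 4506, 2896 and 4763 at day 5, against 14707, 13349 and 11597 at day 0. In N2 the day 5 values lie far below the day 0 values, and in the mutants replicate 1 at day 5 lies just above the lowest day 0 value. As a share of all microRNA reads, miR-237-5p made up 0.198% ± 0.0195 in mutants at day 5 against 0.699% ± 0.140 at day 0, and 0.221% ± 0.0119 in N2 at day 5 against 0.735% ± 0.106 at day 0 (SD, n = 3 each). On this scale, which does not use the authors' scaling, the day 5 values are close together and no group of one age overlaps the other.

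miR-237-3p was scarce throughout. Mutants had 46.9, 11.9 and 15.2 normalised reads at day 5, from 38, 23 and 17 reads, against 88.6, 44.5 and 59.0 at day 0, from 98, 32 and 56 reads. N2 had 12.3, 3.94 and 3.46 at day 5, from 10, 7 and 4 reads, against 69.5, 45.7 and 23.9 at day 0, from 56, 41 and 15 reads. The N2 groups do not overlap, while the mutant groups overlap through replicate 1 at day 5. Every N2 library at day 5 was above the floor of 3 reads, but its value rests on at most 10 reads.

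The values of lin-4-5p at the 2 ages were apart in N2 and overlapped in the mutants. Mutants had 8240, 4936 and 4703 normalised reads at day 5, against 8127, 4458 and 4357 at day 0. N2 had 2210, 2557 and 3157 at day 5, against 5026, 5354 and 4112 at day 0. The mutant groups cover almost the same range, with replicate 1 high at both ages, and the N2 groups do not overlap. As a share of all reads, lin-4-5p made up 0.206% ± 0.0520 in mutants at day 5 against 0.279% ± 0.0655 at day 0, and 0.150% ± 0.0439 in N2 at day 5 against 0.271% ± 0.0616 at day 0 (SD, n = 3 each). On this scale too the ages overlap in the mutants and not in N2.

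**Figure D1:**
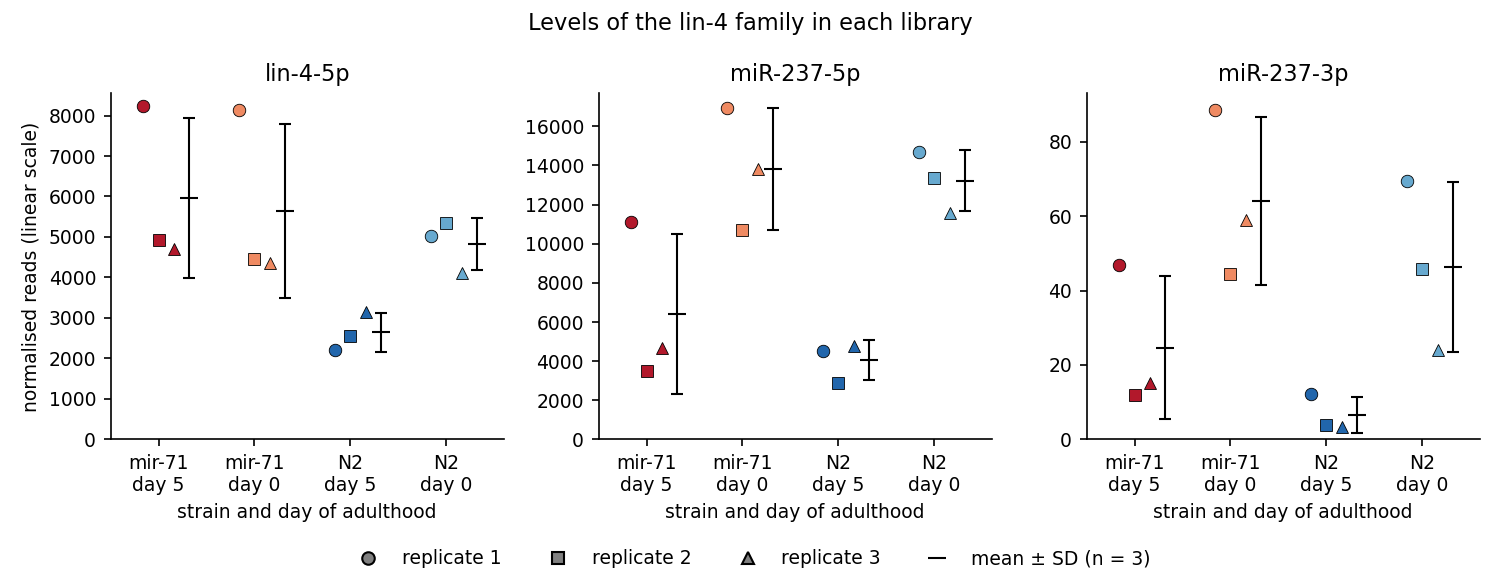
Normalised reads (linear axes from 0, a separate axis for each microRNA) of lin-4-5p, miR-237-5p and miR-237-3p in each of the 12 libraries, by strain and day; symbols mark replicate numbers and bars show the mean ± SD (n = 3). The means of both mir-237 arms sit lower at day 5 than at day 0 in each strain, while lin-4-5p is lower at day 5 in N2 and spans almost the same values at both days in the mutants.

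By group means, miR-237-5p stood in the order mutants at day 0 (13835 ± 3111), N2 at day 0 (13218 ± 1559), mutants at day 5 (6420 ± 4087) and N2 at day 5 (4055 ± 1012). The only neighbours in this order whose values do not overlap are N2 at day 0 and the mutants at day 5. For miR-237-3p the order was also mutants at day 0 (64.1 ± 22.5), N2 at day 0 (46.4 ± 22.8), mutants at day 5 (24.7 ± 19.3) and N2 at day 5 (6.55 ± 4.94), and every pair of neighbours overlaps. For lin-4-5p the order was mutants at day 5 (5960 ± 1978), mutants at day 0 (5647 ± 2148), N2 at day 0 (4831 ± 643) and N2 at day 5 (2641 ± 479). Here only the last 2 neighbours, N2 at day 0 and at day 5, are separate (SD, n = 3 for each mean).

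The change with age was tested in limma on log2(normalised reads + 1), in 1 fit of all 213 microRNAs and all 12 libraries. A call needed an adjusted p below 0.05 (Benjamini-Hochberg, over the 213). In N2 both mir-237 arms fell. miR-237-5p changed by −1.73 ± 0.44 on the log2 scale (SE, limma adjusted p = 0.0127), which is 3.32-fold lower at day 5. miR-237-3p changed by −2.71 ± 0.61 (limma adjusted p = 0.00932), on a scale that understates changes of scarce microRNAs. This was the lowest value of all 213 microRNAs, but miR-230-3p was almost equal at −2.70 ± 0.42. In the mutants miR-237-3p ranked 10th from the lowest, and averaged over both strains 4th. lin-4-5p had −0.88 ± 0.39 (adjusted p = 0.108), with a 95% interval of −1.71 to −0.04, and did not pass. So 2 of the 3 members fell, where 34 of the 213 microRNAs (16.0%) were called lower and 16 (7.51%) higher. These 2 are the arms of 1 precursor, so the calls are not independent and concern 1 of the 2 genes. The split between higher and lower calls was 27 to 68 with equal library totals, 39 to 36 with equal library medians and 37 to 40 by the trimmed mean of M-values, and both mir-237 arms were called lower under each of them. The median change of all microRNAs in N2 was −0.48, and relative to it miR-237-5p had −1.25, miR-237-3p −2.23 and lin-4-5p −0.39. miR-237-5p was not called without replicate 2 of N2 at day 0 (adjusted p = 0.0587) or at day 5 (0.0613), within a range of 0.000263 to 0.0613 over 24 alternative settings, while miR-237-3p was called in each of its 23. lin-4-5p passed under 2 of its 24 settings, equal library totals and a fit of the N2 groups alone, within a range of adjusted p from 0.0384 to 0.444.

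In the mutants 0 of the 3 members passed with the authors' scaling, where 29 of the 213 microRNAs (13.6%) were called, 21 (9.86%) higher and 8 (3.76%) lower, and 65 had an unadjusted p under 0.05. The values were −1.26 ± 0.44 for miR-237-5p (limma adjusted p = 0.0765), −1.54 ± 0.61 for miR-237-3p (0.113) and 0.09 ± 0.39 for lin-4-5p (0.897). The unadjusted p was 0.0115 for miR-237-5p and 0.0223 for miR-237-3p. Across the mutants' ages, deviations from the group means correlated at 0.111 to 0.370 between libraries of the same replicate number. Between libraries of different numbers they correlated at −0.487 to 0.273, so the ranges overlap and the pairing is uncertain. With the replicate number as a block both mir-237 arms were called lower, at limma adjusted p = 0.0113 for miR-237-5p and 0.00786 for miR-237-3p. The block raised the number of microRNAs called in the mutants to 67. Both arms were also called lower when libraries were scaled to equal totals (log2 changes of −1.80 and −2.05), by the trimmed mean of M-values (−1.49 and −1.75) or to equal medians (−1.37 and −1.64). With these scalings 24, 34 and 46 microRNAs were called higher and 47, 31 and 28 lower. Leaving out replicate 1 of the mutants at day 5 also gave both calls, at −1.75 and −2.11. Over all settings the adjusted p ran from 0.000199 to 0.228 for miR-237-5p and from 0.00105 to 0.268 for miR-237-3p. The sign of lin-4-5p in the mutants depended on the scaling, with −0.44, −0.14 and −0.017 under the same 3 scalings, and it was not called under any setting. The summed germline and embryo markers given above had a higher median at day 5 than at day 0 in both strains. In N2 the muscle marker stood at 38123 to 56508 normalised reads at day 5 against 80998 to 120775 at day 0, without overlap. The 4 neuronal markers summed to 607 to 722 at day 5 against 1532 to 2006 at day 0, also without overlap. This sum is mostly miR-790-5p, at 562 to 670 against 1446 to 1938. lsy-6 was also lower at day 5 (0 to 6.05 against 11.2 to 15.6). miR-124-3p (6.13 to 13.8 against 7.81 to 14.9) and miR-791-3p (25.1 to 45.3 against 27.3 to 62.2) overlapped between the ages. The intestine marker in N2 stood at 620 to 1928 at day 5 against 1625 to 2428 at day 0, and the glia marker at 19814 to 35589 against 31656 to 46745, both with overlap. In the mutants the ages overlapped in each of these 4 tissue sums, with muscle at 59109 to 264513 at day 5 against 49845 to 370872 at day 0. Within the neuronal sum of the mutants, miR-124-3p was higher at day 5 without overlap (28.6 to 44.4 against 5.57 to 22.6). So was miR-791-3p (51.9 to 105 against 28.9 to 39.0), while miR-790-5p and lsy-6 overlapped. The part of these tissue differences in the age differences of the mir-237 arms was not tested.

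Averaged over both strains, both mir-237 arms fell and lin-4-5p did not pass. The log2 change was −1.50 ± 0.31 for miR-237-5p (limma adjusted p = 0.00191) and −2.12 ± 0.43 for miR-237-3p (0.00166), and both were called in each alternative setting, 23 for miR-237-5p and 22 for miR-237-3p. lin-4-5p had −0.39 ± 0.28 (adjusted p = 0.279) and was called lower only with equal totals (−0.67). In this average 37 of the 213 microRNAs (17.4%) were called lower and 35 (16.4%) higher, and the median change was −0.11. The difference between the age changes, mutants minus N2, was 0.97 ± 0.56 for lin-4-5p (limma adjusted p = 0.497), 0.47 ± 0.63 for miR-237-5p (0.762) and 1.18 ± 0.86 for miR-237-3p (0.597). In this comparison limma called 0 of 211 microRNAs (0%, the mir-71 products left out), with 25 at an unadjusted p under 0.05, and the median was 0.70. The 95% interval for lin-4-5p, −0.21 to 2.15, holds both no difference and one of more than 4-fold.

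**Figure D2:**
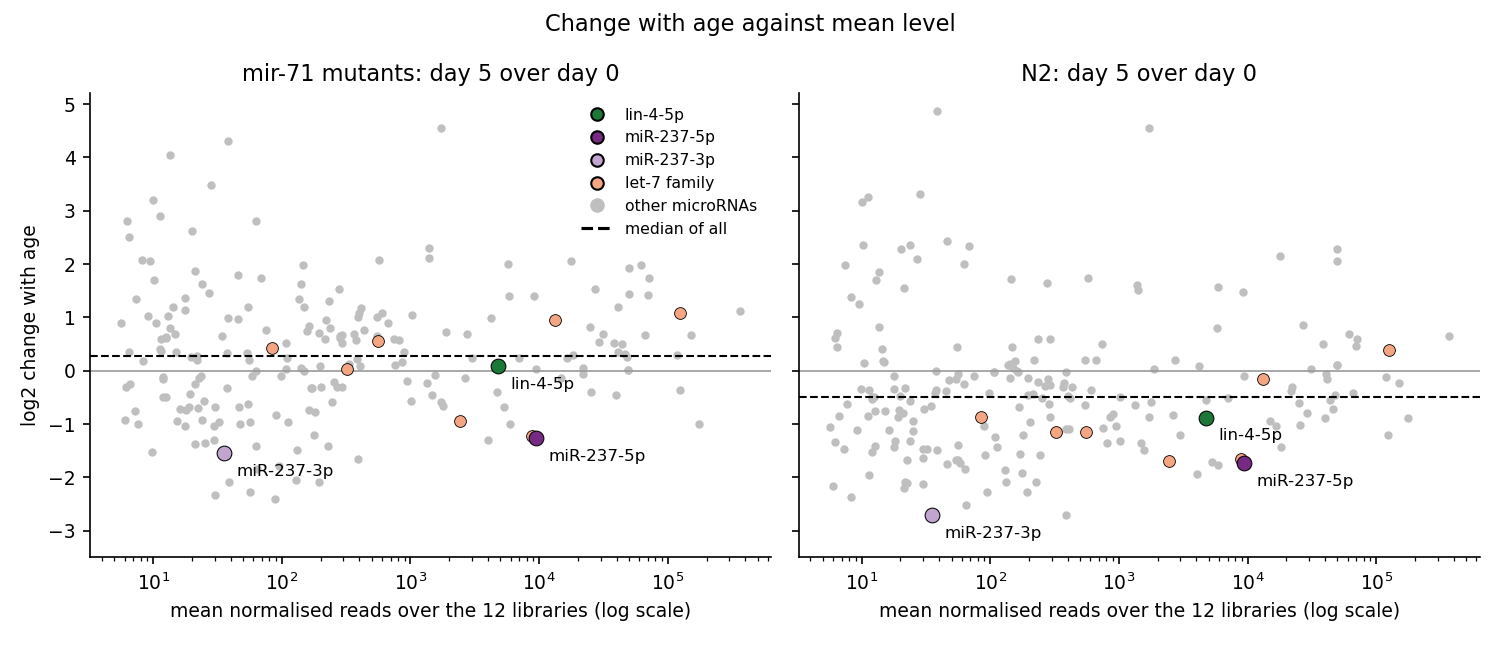
Log2 change with age (day 5 over day 0) against mean normalised reads over the 12 libraries (log axis) for all 213 microRNAs, in mir-71 mutants and in N2; dashed lines mark the median change. Both mir-237 arms lie below the median in both panels, at −1.26 and −1.54 in the mutants and −1.73 and −2.71 in N2, with let-7-5p almost on top of miR-237-5p, while lin-4-5p lies near the median of the mutants.

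The makeup of the family changed with age, tested over both strains together. Of the summed reads of the 2 guide strands, miR-237-5p made up 57.4%, 41.5% and 49.8% in the mutants at day 5, against 67.6%, 70.6% and 76.0% at day 0. In N2 it made up 67.1%, 53.1% and 60.1% at day 5, against 74.5%, 71.4% and 73.8% at day 0. In each strain all 3 day 5 libraries lie below all 3 day 0 libraries. Apart from the 1 added to each value, a ratio within a library does not change when the whole library is rescaled. The log2 ratio of miR-237-5p to lin-4-5p was −0.03 ± 0.46 in mutants at day 5 against 1.33 ± 0.31 at day 0, and 0.60 ± 0.42 in N2 at day 5 against 1.45 ± 0.12 at day 0 (SD, n = 3 each). Over both strains the ratio was 2.15-fold lower at day 5 (two-sided exact permutation test within strains, p = 0.005, the smallest that its 400 arrangements can give, adjusted p = 0.015 over 6 ratio comparisons). The fall was 1.36 on the log2 scale in the mutants and 0.85 in N2, and whether these differ was not tested. Between strains the ratio differed by −0.37, mutants minus N2 (exact permutation test within days, p = 0.1, adjusted p = 0.1), which did not pass. Leaving out replicate 3 of the day 0 mutants gave −0.46 (exact permutation p = 0.03).

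lin-4-5p and let-7-5p are the microRNAs with which the timing pathway was first described, lin-4 acting in early and let-7 in late larvae. The log2 ratio of lin-4-5p to let-7-5p was 0.20 ± 0.35 in mutants at day 5 against −1.11 ± 0.19 at day 0, and −0.69 ± 0.13 in N2 at day 5 against −1.47 ± 0.20 at day 0. In each strain the day 5 values lie above all day 0 values, and over both strains the ratio was 2.07-fold higher at day 5 (two-sided exact permutation test within strains, p = 0.005, the smallest possible, adjusted p = 0.015). It was also higher in mutants than in N2, by 0.62 on the log2 scale over both days (exact permutation test within days, p = 0.01, adjusted p = 0.02). At day 5 the strains do not overlap in this ratio, and at day 0 they do. Both ratio differences kept p under 0.05 with each single library left out. These ratios show unequal change of the 2 microRNAs and not which of them moved.

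**Figure D3:**
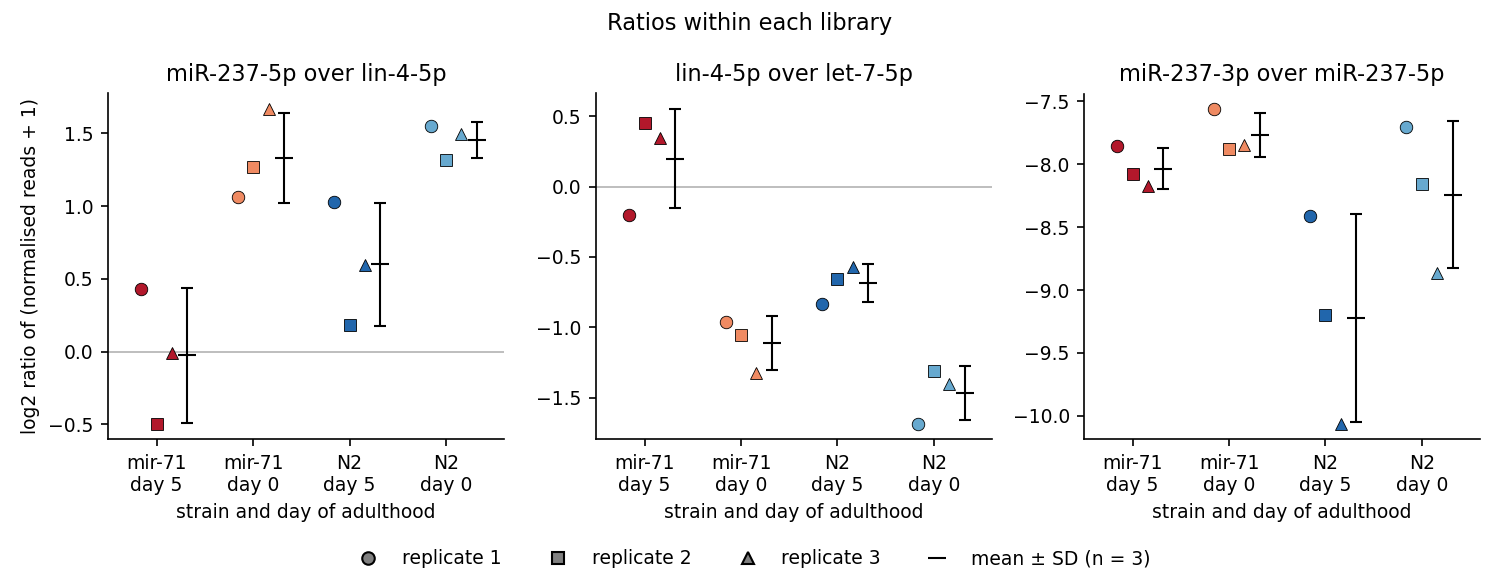
Log2 ratios of (normalised reads + 1) within each of the 12 libraries, by strain and day, with the mean ± SD (n = 3); the grey line marks equal levels where 0 is in range. miR-237-5p over lin-4-5p is lower and lin-4-5p over let-7-5p is higher at day 5 in both strains, with no overlap between the ages, while the ratio of the mir-237 arms overlaps between the ages in each strain.

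Within the mir-237 precursor, the passenger strand made up less than 1% of the reads of both arms in every library. It was 0.421%, 0.340% and 0.325% in mutants at day 5, against 0.520%, 0.413% and 0.425% at day 0. In N2 it was 0.271%, 0.136% and 0.0726% at day 5, against 0.470%, 0.341% and 0.206% at day 0. The widest exact (Clopper-Pearson) 95% interval among the N2 libraries at day 5, that of replicate 1, runs from 0.130% to 0.498%, so that single libraries are imprecise here. These intervals cover counting error only. The log2 ratio of miR-237-3p to miR-237-5p was lower at day 5 by 0.63 over both strains (exact permutation test within strains, p = 0.06, adjusted p = 0.072) and did not pass. With same-numbered libraries paired, the same −0.63 had an exact permutation p of 0.0313, the smallest that pairing allows. Across the N2 ages, however, the numbers pair no libraries (correlations of −0.018 to 0.125). Without replicate 1 of N2 at day 5 the difference was −0.83 (exact permutation p = 0.025). The ratio of miR-237-3p to miR-237-5p was higher in mutants than in N2 by 0.83 on the log2 scale (exact permutation test within days, p = 0.015, adjusted p = 0.0225), and this exact p was 0.06, 0.05 and 0.05 without replicates 1, 2 and 3 of the mutants at day 5. In a limma fit of the 5p over 3p ratio of the 61 genes other than mir-71 with both arms measured, the age change of mir-237 averaged over both strains was 0.63 ± 0.32 (adjusted p = 0.143) and was not called, where 27 of the 61 genes (44.3%) were. It was called without replicate 1 of N2 at day 5 (0.83, adjusted p = 0.0403), and the adjusted p ran from 0.0403 to 0.524 over 15 settings. In the same fit the difference between strains in the 5p over 3p ratio, averaged over both days, was −0.83 ± 0.32 (limma adjusted p = 0.123) and was not called, where 1 of the 61 genes (1.64%) was. At day 5 it was −1.19 ± 0.46 (adjusted p = 0.191) and was not called either, again with 1 of 61 genes called. So the strain difference in arm ratio passed the permutation test of this 1 gene and not the fit over all genes, where it was not called under any of 15 settings (adjusted p of 0.0649 to 0.265 averaged over days and 0.112 to 0.52 at day 5).

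At day 0 the strains were not separated in any member. The values, mutants over N2 on the log2 scale, were 0.17 ± 0.39 for lin-4-5p (limma adjusted p = 0.966), 0.05 ± 0.44 for miR-237-5p (0.994) and 0.53 ± 0.61 for miR-237-3p (0.966). limma called 0 of 211 microRNAs (0%), with 5 at an unadjusted p under 0.05. The 95% intervals, −0.66 to 1.00 for lin-4-5p and −0.89 to 0.99 for miR-237-5p, allow differences of up to about 2-fold. That of miR-237-3p, −0.76 to 1.81, allows a wider one.

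At day 5 lin-4-5p was higher in mutants than in N2 with the authors' scaling. The 3 mutant libraries, at 4703 to 8240 normalised reads, lie above the 3 N2 libraries, at 2210 to 3157, and the log2 difference was 1.14 ± 0.39 (SE, limma adjusted p = 0.0482). This is 1 of the 3 members, where 48 of 211 microRNAs (22.7%) were called higher and 0 lower. The split was 19 to 5 with equal totals, 15 to 11 with the trimmed mean of M-values, 15 to 13 with equal medians and 95 to 1 with the replicate number as a block. The median difference of all microRNAs at day 5 was 0.98, and relative to it lin-4-5p had 0.16. With equal totals, the trimmed mean of M-values and equal medians its difference was 0.37, 0.19 and 0.20 and was not called. The call was kept under 10 of the 24 alternative settings, with an adjusted p of 0.0172 to 0.783 over all of them. It was lost without replicate 1 of the mutants at day 5 (0.88, adjusted p = 0.169), without any single N2 library, and without replicate 3 of the mutants at either day. The 4 neuronal microRNAs taken as markers (miR-124-3p, lsy-6, miR-790-5p and miR-791-3p) were all present in each group. Their summed level, mostly miR-790-5p, ran from 1362 to 3292 in mutants at day 5 and from 607 to 722 in N2 at day 5. At day 0 it ran from 1374 to 2664 in mutants and from 1532 to 2006 in N2. The markers of muscle (miR-1-3p), intestine (miR-60-3p) and glia (miR-228-5p) stood at 59109 to 264513, 2020 to 4945 and 36567 to 102936 normalised reads in mutants at day 5. In N2 at day 5 they stood at 38123 to 56508, 620 to 1928 and 19814 to 35589, below the mutants with no overlap. Each of these 4 tissue sums was thus lower in N2 at day 5, as lin-4-5p was, on a scale where the median of all microRNAs differed by 0.98. miR-1-3p (1.42, limma adjusted p = 0.0998) and miR-228-5p (1.13, 0.0913) were not called between the strains. Of the neuronal markers, lsy-6 (3.35, limma adjusted p = 0.00953) and miR-124-3p (1.86, 0.0262), both scarce, were called higher in the mutants. miR-790-5p (1246 to 3089 against 562 to 670 normalised reads) and miR-791-3p (51.9 to 105 against 25.1 to 45.3) were also higher in the mutants without overlap. The summed germline and embryo markers overlapped, at 143403 to 238057 in N2 against 108135 to 346010 in mutants. The part of these tissue differences in the lin-4-5p result was not tested. In whole worms, fewer cells of a type and less of a microRNA per cell cannot be told apart.

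The mir-237 arms did not pass between the strains at day 5. miR-237-5p had 0.51 ± 0.44 (limma adjusted p = 0.37), and its difference was −0.25, −0.44 and −0.43 under the same 3 scalings, so that its direction depended on the scaling. miR-237-3p had 1.70 ± 0.61 (adjusted p = 0.0513), and with equal totals, the trimmed mean and equal medians 1.00, 0.84 and 0.85 (adjusted p = 0.112, 0.224 and 0.216), not called. Between the strains, same-numbered libraries deviated alike at both days. With the replicate number as a block miR-237-3p was called higher in the mutants at day 5 (adjusted p = 0.00411, within a range of 0.00411 to 0.234 over 23 settings). It was also called with a pseudocount of 0.5, with the compared groups fitted alone, and when replicate 2 of the day 5 mutants (2.07, adjusted p = 0.027) or replicate 1 or 2 of the day 0 mutants was left out. Averaged over both days, the difference was 0.66 ± 0.28 for lin-4-5p (adjusted p = 0.0994), 0.28 ± 0.31 for miR-237-5p (0.5) and 1.11 ± 0.43 for miR-237-3p (0.0851), so that 0 of 3 passed, where 24 of 211 microRNAs (11.4%) were called higher and 0 lower, or 90 and 1 with the replicate block. With the replicate block lin-4-5p (adjusted p = 0.0476) and miR-237-3p (0.00701) were called higher in the mutants in this average, with ranges over the settings of 0.0467 to 0.985 and 0.00701 to 0.321. With equal totals, the trimmed mean and equal medians lin-4-5p had 0.14, 0.024 and 0.0080 in this average and miR-237-3p had 0.64, 0.53 and 0.52, and neither was called. Without replicate 2 of the mutants at day 0 both were called too (adjusted p = 0.0467 and 0.0406), while miR-237-3p alone was when replicate 2 of the day 5 mutants was left out (0.0431). The comparison of strains at day 5 shares libraries with each age comparison, so its values are not independent of theirs.

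**Figure D4:**
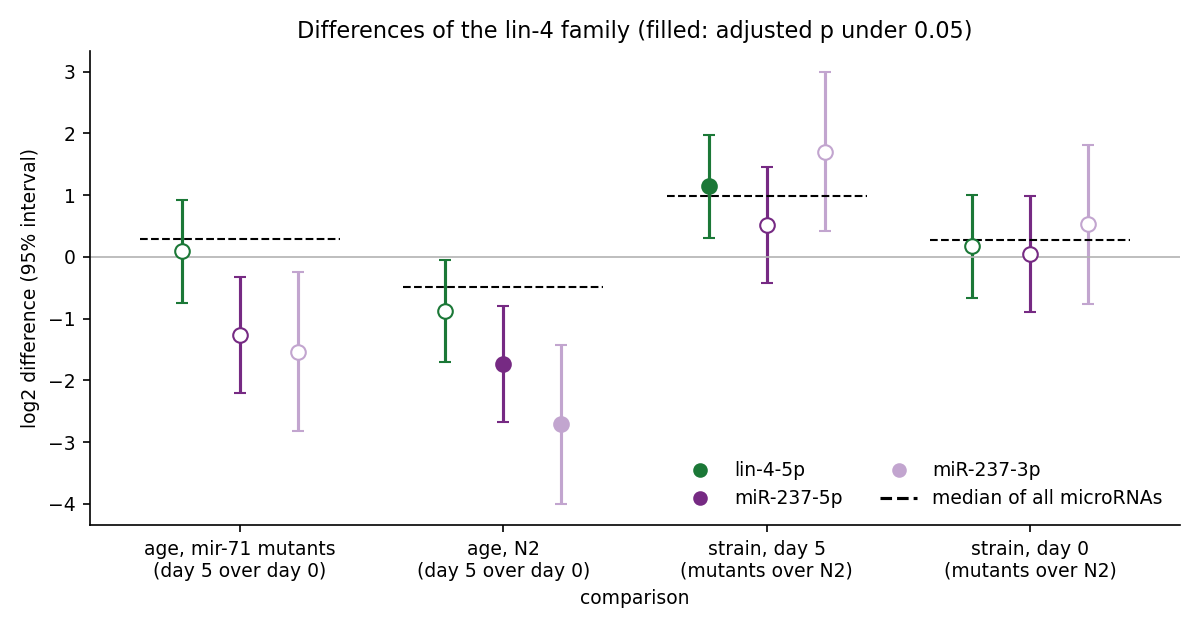
Log2 differences of the 3 members in 4 comparisons with 95% limma intervals; filled points have an adjusted p under 0.05 and dashed lines mark the median of all microRNAs in the same comparison. The mir-237 arms lie below the median with age in both strains, and lin-4-5p at day 5 lies at 1.14 in mutants over N2 while the median lies at 0.98.

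The let-7 family was followed as the other microRNAs of developmental timing. Its members let-7-5p, miR-48-5p, miR-84-5p and miR-241-5p act after lin-4 in the same pathway. The list also holds the further let-7 relatives miR-793, miR-794-5p and miR-795-5p. All 7 members listed were measured. In N2, 3 of the 7 fell with age and 0 rose, at a median log2 change of −1.15 against −0.48 for all microRNAs. Over all microRNAs, 34 of 213 (16.0%) were called lower and 16 (7.51%) higher. The 3 were let-7-5p (−1.66 ± 0.43, limma adjusted p = 0.013), miR-241-5p (−1.69 ± 0.40) and miR-795-5p (−1.15 ± 0.39). The call of miR-795-5p was lost by the trimmed mean of M-values, with equal medians, with the deposited log2 values and in limma without the trend. It was also lost when any single N2 library, replicate 3 of the day 0 mutants or replicate 2 of the day 5 mutants was left out. The calls of let-7-5p and miR-241-5p were lost without replicate 2 of N2 at either day. Other settings added calls in N2. miR-793 was called lower too with equal totals, with the N2 groups fitted alone, with the replicate block and without replicate 2 of the day 0 mutants. With equal totals miR-794-5p was as well, which made 5 of 7. miR-48-5p (0.38) and miR-84-5p (−0.15), which act with miR-241 in larval timing, did not pass, although miR-48-5p was called higher with equal medians. In the mutants 0 of 7 passed with the authors' scaling, at a median of 0.43 against 0.28 for all microRNAs, with let-7-5p at −1.22 ± 0.43 and miR-241-5p at −0.93 ± 0.40. Under each of the 3 other scalings let-7-5p and miR-241-5p were called lower in the mutants too, and with the replicate block let-7-5p was. miR-48-5p, at 1.09 ± 0.49, was called higher in the mutants with the block, by the trimmed mean and with equal medians, and not with equal totals. Leaving out replicate 1 of the day 5 mutants gave 1 call, let-7-5p lower. Between the strains at day 5, 3 of 7 were higher in the mutants, miR-793, miR-794-5p and miR-795-5p, where 48 of 211 microRNAs (22.7%) were called higher. Of these miR-793 kept the call under all 3 other scalings. miR-84-5p was called higher too under several settings, among them the replicate block, a pseudocount of 5 and the day 5 groups fitted alone, but under none of the 3 other scalings. When replicate 1 of the day 5 mutants or replicate 2 of N2 at day 5 was left out, 0 of the 7 were called, miR-793 included, and without replicate 1 of N2 at day 5 only miR-793 was.

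**Figure D5:**
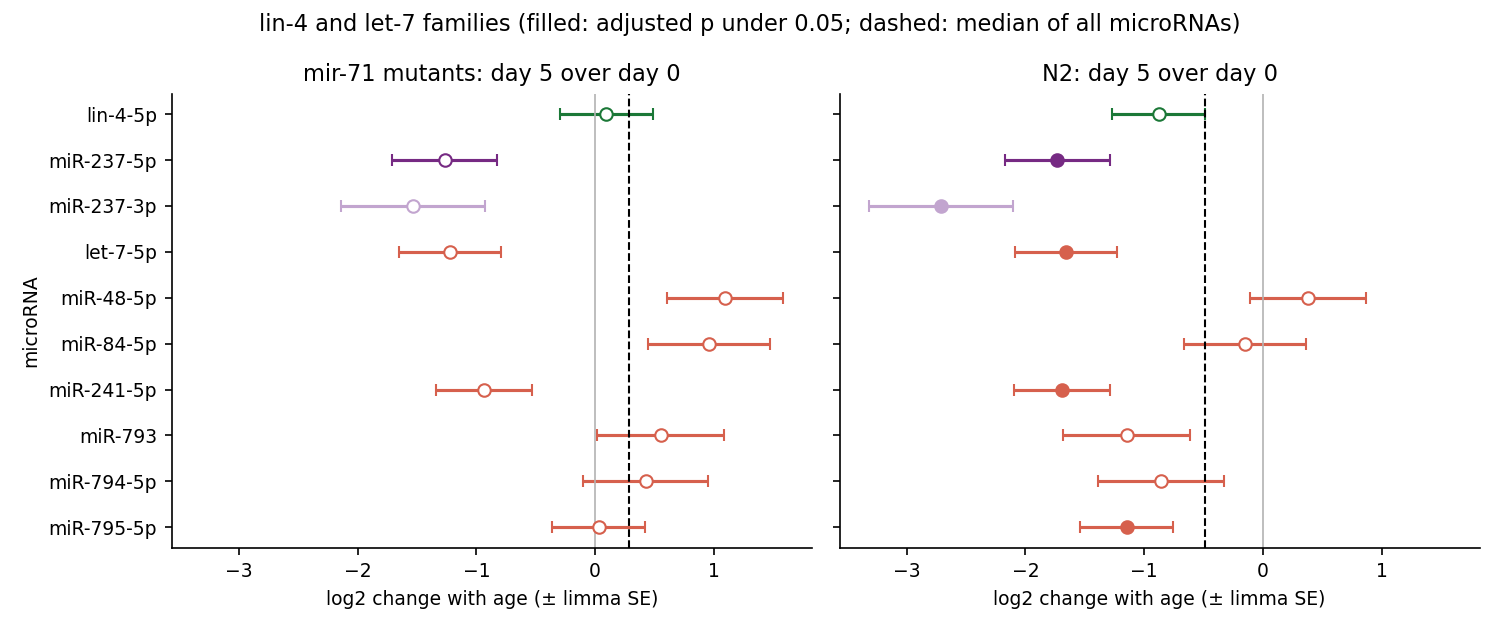
Log2 change with age (± limma SE) of the lin-4 and let-7 families in mir-71 mutants and in N2; filled points have an adjusted p under 0.05 and dashed lines mark the median change of all 213 microRNAs. miR-237-5p, let-7-5p and miR-241-5p lie left of the median in both strains, and lin-4-5p lies with miR-795-5p near 0 in the mutants.

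The levels of the 3 members were compared with those of every other microRNA over the 12 libraries, as Pearson's r of log2(normalised reads + 1). The libraries share their scaling and fall into 4 groups, so these values describe likeness only. miR-237-5p was most like miR-54-5p (r = 0.97), let-7-5p (0.97), miR-230-5p (0.96), miR-1817 (0.96) and miR-788-3p (0.95), against a median of 0.43 over all others, and it had 0.65 with lin-4-5p. miR-237-3p was most like miR-800-3p (0.97), miR-241-3p (0.97), miR-2953-3p (0.95), miR-47-3p (0.94) and miR-54-5p (0.94), and it had 0.91 with the other arm of its own precursor. lin-4-5p was most like miR-86-5p (0.94), miR-46-3p (0.93), miR-85-3p (0.92), miR-790-5p (0.92) and miR-787-3p (0.91), against a median of 0.62. With each library's median subtracted first, lin-4-5p and miR-237-5p had only 0.26 between them. let-7-5p was still among the 5 most like miR-237-5p (0.95), and miR-795-5p of the let-7 family became the most like lin-4-5p (0.81).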

How the data were processed

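Small RNA was sequenced in 12 whole-worm libraries, whose groups and replicate numbers were taken from their titles. The submitters' processing notes name STAR 2.4.0h, DESeq2 and the build WBcel235. How reads were trimmed and counted is not given in the sources used here. For 213 microRNAs the authors deposited a signal in the form of normalised reads, and a log2 version with an unstated transformation, used only as an alternative. Within each library the deposited values (100% of them) were multiples of 1 step to within 0.001; read numbers rest on this reading. The labels call the libraries biological triplicates without saying what was separate, so p-values measure the spread between these libraries.

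Members, lists and tests were chosen with earlier results of these data known. Named microRNAs were the members, the let-7 list, each member's neighbours in level and the 5 microRNAs most like it. limma 3.58.1 (R 4.3.3) fitted the 4 group means to log2(value + 1) with an intensity trend. The filter, a mean of at least 5, removed 0. Adjustment was over all 213; counts between strains leave out the mir-71 products. Ratios used two-sided exact permutation tests within strains or days. Same-numbered libraries correlated in their deviations at 0.248 to 0.569 between strains, against −0.482 to 0.038 for different numbers. Between the mutants' ages the values were 0.111 to 0.37 against −0.487 to 0.273, which overlap. In the main tests no libraries were paired. Only the replicate block and the paired ratio tests, both alternatives, took the numbers to pair them, which is uncertain for the mutants' ages. Between the N2 ages the values were −0.018 to 0.125 against −0.320 to 0.247, so there the numbers pair no libraries. Procedures were tested on simulated data. Alternatives covered pseudocount, filter, scaling, deposited log2 values, groups alone, replicate block, other limma settings and each library left out.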

Additional observations from a re-analysis of the deposited data

How the results depend on the processing

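Whichever single library was left out, the number of members called with age averaged over both strains stayed at 2, and the 2 ratios of miR-237-5p to lin-4-5p and of lin-4-5p to let-7-5p kept their age calls, at −1.22 to −0.99 and 0.98 to 1.15. With 1 library left out, the number of members called was 1 to 2 with age in N2, 0 to 2 with age in the mutants, 0 to 2 between strains at day 5 and 0 to 2 between strains averaged over days, while the arm ratio of mir-237 in the fit ran from 0.42 to 0.83, the 3p over 5p ratio from −0.83 to −0.42 with age and 0.62 to 1.04 between strains, and miR-237-5p over lin-4-5p between strains from −0.49 to −0.26. With age in the mutants, 2 members were called with equal totals, the trimmed mean of M-values, equal medians and the replicate block, against 0 with the authors' scaling and no block. A filter at a mean of 50, which drops miR-237-3p, left 1 called in N2 and 1 averaged over strains. Between strains at day 5, where 1 was called, the number was 2 with a pseudocount of 0.5 and with the replicate block, and 0 with equal totals, the trimmed mean of M-values, equal medians and limma without the trend; fitted alone, the groups gave 1, miR-237-3p in place of lin-4-5p. The replicate block also gave 2 between strains averaged over days and a 3p over 5p age ratio of −0.63 past the threshold (exact permutation p = 0.0313); beside the calls named, it changed no other call of a member or of their ratios. The strain values of the arm-ratio fit and their alternatives were added after the data were seen. In N2 the numbers pair no libraries (correlations of −0.018 to 0.125), although the block and the paired age test use them there too.

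Signs that turned belong to values that were never called. With equal totals, the trimmed mean of M-values and equal medians, lin-4-5p had −0.44, −0.14 and −0.017 with age in the mutants and −0.085, −0.14 and −0.18 between strains at day 0, against 0.09 and 0.17 with the authors' scaling. miR-237-5p had −0.21, −0.26 and −0.30 at day 0, −0.25, −0.44 and −0.43 at day 5, −0.23, −0.35 and −0.37 averaged over days, and −0.045, −0.18 and −0.13 for the difference between the age changes. With 1 library left out these ran from −0.17 to 0.39 and −0.12 to 0.33 for lin-4-5p, and from −0.11 to 0.22 at day 0 and −0.019 to 0.81 for the age difference for miR-237-5p. The cause was not tested. A filter at a mean of 50 tests fewer microRNAs than the other settings, so its counts are out of a smaller set. The number of all microRNAs called moved by 1.5 times or more under several settings. With age in the mutants (29) it was 19 with the filter at 50, 71 with equal totals, 65 with the trimmed mean, 74 with equal medians, 3 with the groups alone and 67 with the block, in N2 (50) 26, 95, 77, 75, 79 and 86. Averaged over strains (72) it was 41 with that filter and 125 with equal totals, between strains at day 5 (48) 24, 26 and 28 with the 3 scalings and 96 with the block, and averaged over days (24) 91 with the block. With 1 library left out it ran from 6 to 44 with age in the mutants, 10 to 67 in N2, 50 to 81 averaged over strains, 1 to 75 between strains at day 5 and 5 to 80 averaged over days. Depth limits miR-237-3p most, at 4 to 10 reads in N2 at day 5.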

Other observations

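miR-237-5p and let-7-5p stood at similar normalised reads in each library, a pair chosen after its values were seen. miR-237-5p over let-7-5p was 1.17, 0.970 and 1.26 in mutants at day 5, 1.07, 1.16 and 1.26 in mutants at day 0, 1.14, 0.719 and 1.01 in N2 at day 5, and 0.909, 1.00 and 1.06 in N2 at day 0. The median over the 12 libraries was 1.07, and no test was made of this ratio.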
